A study of Homo sapiens with 4 samples.

Results

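The oxygen sensing genes of TK6 cells are described here: the subunits of the hypoxia-inducible factor HIF, the hydroxylases that mark it, and the ubiquitin ligase subunits that bind it once marked. They were taken by symbol, as HIF1A, EPAS1, ARNT, HIF1AN, EGLN1, EGLN2, EGLN3, VHL, TCEB1 and TCEB2. No value entered this rule, but it was chosen with earlier results of these data known. Of these 10 symbols, 8 were among the 11415 gene symbols of the deposited table, and EPAS1 and EGLN3 were not analysed here. All 8 passed the filter on low counts, which removed 0 of the 11415 genes.

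RNA-seq was performed on TK6, an established line of human lymphoblastoid B cells that is heterozygous for thymidine kinase. The cells were seeded at 200000 cells per ml in HARV bioreactors and kept for 48 hours, either rotated at 12 rpm to simulate microgravity (2 libraries) or left static as the control (2 libraries). The comparison asks which transcripts change when the culture is rotated. It is not stated for the RNA whether replicate libraries stem from separate cultures, so the p-values may measure technical spread only.

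Libraries held 57481510 to 64497288 counts over 1 record per gene, and edgeR's quasi-likelihood test at a Benjamini-Hochberg false discovery rate (FDR) under 0.1 called 126 of 11415 genes, of which 27 rose and 99 fell. All 4 libraries carry the same run and lane in the table. On the first principal component, with 50.2% of the variance, simulated microgravity replicate 2 lay furthest from the static libraries. All 10 B lymphoid markers were listed (summed level 2931 to 3065 CPM in simulated microgravity and 2907 to 2980 CPM in static control), against 3 of 28 markers of other cell types, namely KRT8, COL1A1 and ITGAM (summed level 88.6 to 91.3 CPM in simulated microgravity and 87.9 to 93.0 CPM in static control). CPM values are counts scaled to the size of the library, with TMM factors. None of these markers passed the test. The sums hide opposite directions, since 1 B lymphoid marker had a log2 fold change above 0 and 9 had one below 0, from -0.15 to 0.24. Of these B lymphoid markers, 2 had an unadjusted p under 0.05 (edgeR). No marker of T cells or endothelial cells was listed.

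HIF is a pair of proteins, an alpha subunit that oxygen makes unstable and a beta subunit that is always present. With oxygen, prolyl hydroxylases of the EGLN family add hydroxyl groups to prolines of the alpha subunit, and VHL, held in its ligase by the elongins, then binds the alpha subunit and has it degraded by the proteasome. When oxygen is short the alpha subunit persists, joins ARNT and switches on genes of glycolysis, angiogenesis and mitochondrial turnover. EGLN1 and EGLN3 are themselves among the genes that HIF induces, which makes a feedback loop, and in lymphocytes HIF1A is known for its part in the shift to glycolysis on activation.

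EGLN1, the main prolyl hydroxylase of HIF1A under normal oxygen, fell in simulated microgravity, and it was the 1 member of 8 that passed the test (12.5%), against 1.10% of all genes tested. It was also the 1 member with an unadjusted p under 0.05, against 8.08% of all genes. It had 67.1 and 62.0 CPM in simulated microgravity, against 83.2 and 93.2 CPM in static control. Both rotated libraries lay below both static libraries, which also held for 18.1% of all genes. The gap between the conditions was wider than the gap between libraries within either condition. EGLN1 averaged 64.6 ± 3.56 CPM in simulated microgravity and 88.2 ± 7.08 CPM in static control (SD, n = 2 each). This is a log2 fold change (log2FC) of -0.45 with a standard error of 0.08 and a 95% interval of -0.62 to -0.28 (edgeR, adjusted p = 0.0103). On the linear scale its level fell by 26.8%. By p it ranked 36 of 11415 genes. Without static control replicate 2 the call was lost (log2FC -0.37, adjusted p = 0.165), and without any other library it was kept. In bulk RNA, fewer cells with the transcript and less of it per cell cannot be told apart.

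**Figure D1:**
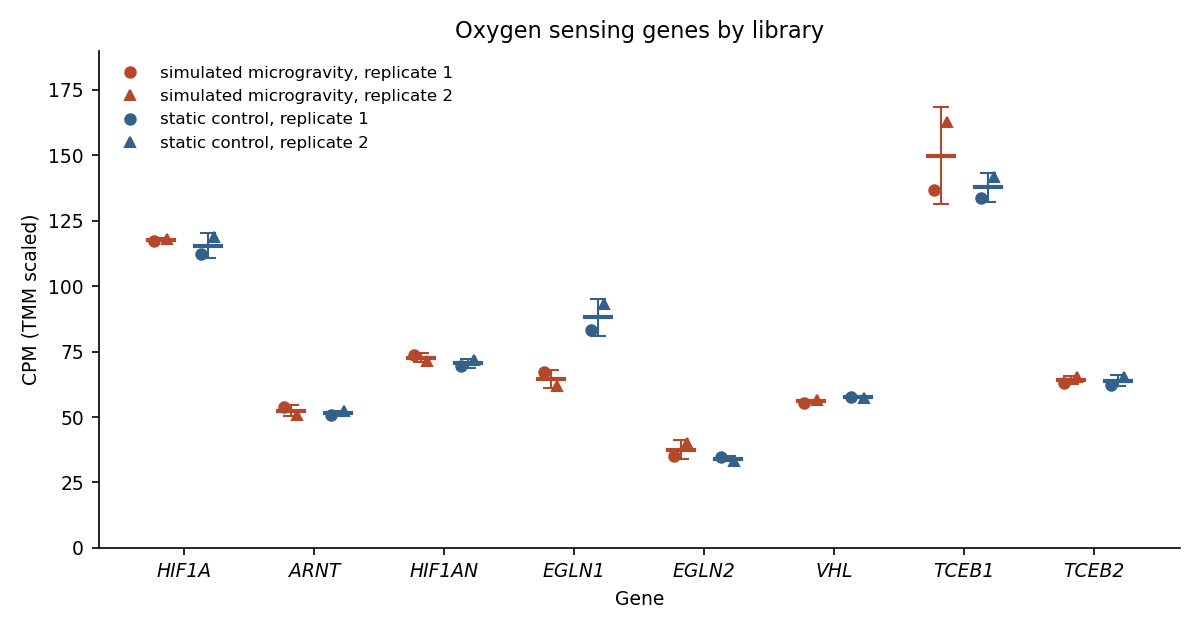
CPM after TMM scaling (y axis) of the 8 measured genes (x axis) in simulated microgravity (left, red) and static control (right, blue). Points are libraries, bars the mean ± SD of 2 libraries. In EGLN1 the conditions lie apart (62.0 and 67.1 against 83.2 and 93.2 CPM), and TCEB1 has 1 high rotated library (163 CPM).

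The bases before the start site of EGLN1, shown because the gene is a known HIF target and was the member called, hold 1 copy of the hypoxia response element core, ACGTG, 13 bases before the start. EGLN2, which is not known to be induced by hypoxia and was not called, has the same letters 48 bases before its first annotated start, inside the palindrome CACGTG, so that they read on both strands. Capitals mark matches to ACGTG or GCGTG on either strand. The windows are 250 bases of GRCh38.p14, from RefSeq, chr1:231422288-231422537 on the minus strand for EGLN1 and chr19:40798941-40799190 on the plus strand for EGLN2, read 5′ to 3′.
EGLN1: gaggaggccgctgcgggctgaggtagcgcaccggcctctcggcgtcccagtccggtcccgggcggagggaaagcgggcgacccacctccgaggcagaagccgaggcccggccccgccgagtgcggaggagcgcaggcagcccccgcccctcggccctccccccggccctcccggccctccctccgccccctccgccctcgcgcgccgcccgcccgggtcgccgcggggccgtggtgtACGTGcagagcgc
EGLN2: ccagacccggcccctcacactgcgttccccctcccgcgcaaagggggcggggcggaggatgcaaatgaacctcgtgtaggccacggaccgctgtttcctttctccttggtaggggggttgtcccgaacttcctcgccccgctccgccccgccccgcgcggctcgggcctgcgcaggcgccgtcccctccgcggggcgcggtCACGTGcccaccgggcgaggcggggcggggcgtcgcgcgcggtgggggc
Of 35116 RefSeq windows of this length, 18.5% hold ACGTG, 32.2% hold GCGTG and 43.2% hold either. Windows were searched for 8 of the 10 symbols, EGLN3 and EPAS1 included. VHL and TCEB1 were not searched, so whether they hold either motif is not given here. HIF1A has 1 GCGTG in the window of its first start, TCEB2 has 2 and EPAS1 has 1, while ARNT, HIF1AN and EGLN3 have neither motif. The window of the second annotated start of EGLN2 has neither as well. The EGLN2 record counted begins 238 bases after the first start and 93 bases before the second. A match is a run of letters and not a bound site.

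In the hg19 coordinates of the deposited table, the EGLN1 record NM_022051 spans 231499497 to 231560790 on the minus strand of chromosome 1. The EGLN1 window with the motif matched GRCh37 once, and its start site lies 2757 bases inside that record, which begins further upstream. The span of the EGLN1 record therefore covers the motif. In the same build, the records used for the other members lay at 62162119 to 62214977 on chromosome 14 (HIF1A), 150782181 to 150849244 on chromosome 1 (ARNT), 102295641 to 102313681 on chromosome 10 (HIF1AN), 41305334 to 41314346 on chromosome 19 (EGLN2), 10183319 to 10195354 on chromosome 3 (VHL), 74857373 to 74884143 on chromosome 8 (TCEB1) and 2821415 to 2827297 on chromosome 16 (TCEB2). Factor binding at these promoters was not measured.

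EGLN2, the prolyl hydroxylase found mostly in the nucleus, had 35.1 and 40.0 CPM in simulated microgravity, against 34.9 and 33.3 CPM in static control. The rotated libraries lay above the static ones, replicate 1 of the rotated cells by a narrow margin, and 35.9% of all genes have CPM values that do not overlap. EGLN2 had a log2FC of 0.14 (standard error 0.09, 95% interval -0.04 to 0.32, edgeR, adjusted p = 0.792), which leaves room for a difference in either direction. Its rotated libraries differed by 0.19 on the log2 scale, more than the fold change itself, and the log2FC was 0.23 without simulated microgravity replicate 1 (edgeR, adjusted p = 0.162) and 0.042 without simulated microgravity replicate 2 (0.977). The read-through record RAB4B-EGLN2 covers the same span and may share reads. It had a log2FC of 0.07 (adjusted p = 0.937).

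HIF1AN, the asparaginyl hydroxylase that keeps HIF alpha from its coactivators, had 73.9 and 71.4 CPM in simulated microgravity, against 69.3 and 71.6 CPM in static control. The conditions overlapped. The log2FC was 0.04 (95% interval -0.11 to 0.20, edgeR, adjusted p = 0.980), and the interval excludes a fall of the size seen in EGLN1.

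HIF1A, the oxygen-labile alpha subunit, had 117 and 118 CPM in simulated microgravity, against 112 and 119 CPM in static control. The rotated values lay between the static values. Its log2FC was 0.03 (95% interval -0.12 to 0.18, edgeR, adjusted p = 0.987), so a change of the transcript beyond a fold of 0.919 or 1.13 lies outside the interval. These are transcript levels, and the HIF1A protein, which the hydroxylases act on, was not measured. The antisense record HIF1A-AS2 overlaps the end of HIF1A by 1221 bases with 1448 to 1525 counts per library, and whether the counting used strand is not stated.

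ARNT, the stable beta subunit that HIF alpha shares with the aryl hydrocarbon receptor, had 53.9 and 51.0 CPM in simulated microgravity, against 50.8 and 52.1 CPM in static control. The conditions overlapped here too. The log2FC was 0.03 (95% interval -0.14 to 0.19, edgeR, adjusted p = 0.988). The ratio of ARNT to HIF1A counts averaged 0.445 ± 0.0200 in simulated microgravity and 0.446 ± 0.00995 in static control (SD, n = 2 each).

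VHL, the substrate receptor of the ligase, had 55.5 and 56.4 CPM in simulated microgravity, against 57.8 and 57.2 CPM in static control. The libraries of each condition were close together, and the rotated ones lay slightly lower. The log2FC was -0.04 (95% interval -0.20 to 0.12, edgeR, adjusted p = 0.980), and the difference did not pass the test. Of all genes tested, 18.1% were lower in both rotated libraries than in both static ones.

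TCEB1 encodes elongin C, which links VHL to the cullin of the ligase. It had 137 and 163 CPM in simulated microgravity, against 134 and 142 CPM in static control. Simulated microgravity replicate 2 stood above the other libraries, which lay within 134 to 142 CPM. The log2FC was 0.12 (standard error 0.08, 95% interval -0.05 to 0.30, edgeR, adjusted p = 0.826). It was 0.24 without simulated microgravity replicate 1 (adjusted p = 0.0168) and -0.01 without simulated microgravity replicate 2 (adjusted p = 0.996), so a single library sets its size and direction. The 2 rotated libraries differed by 0.25 on the log2 scale. RefSeq names 34 pseudogenes of TCEB1, and since reads with several mappings were removed by the authors, its level is uncertain.

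TCEB2 encodes elongin B, the partner of elongin C. It had 63.1 and 65.3 CPM in simulated microgravity, against 62.4 and 65.5 CPM in static control, with overlap. The log2FC was 0.01 (95% interval -0.16 to 0.17, edgeR, adjusted p = 0.994). RefSeq names 4 pseudogenes of TCEB2.

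**Figure D2:**
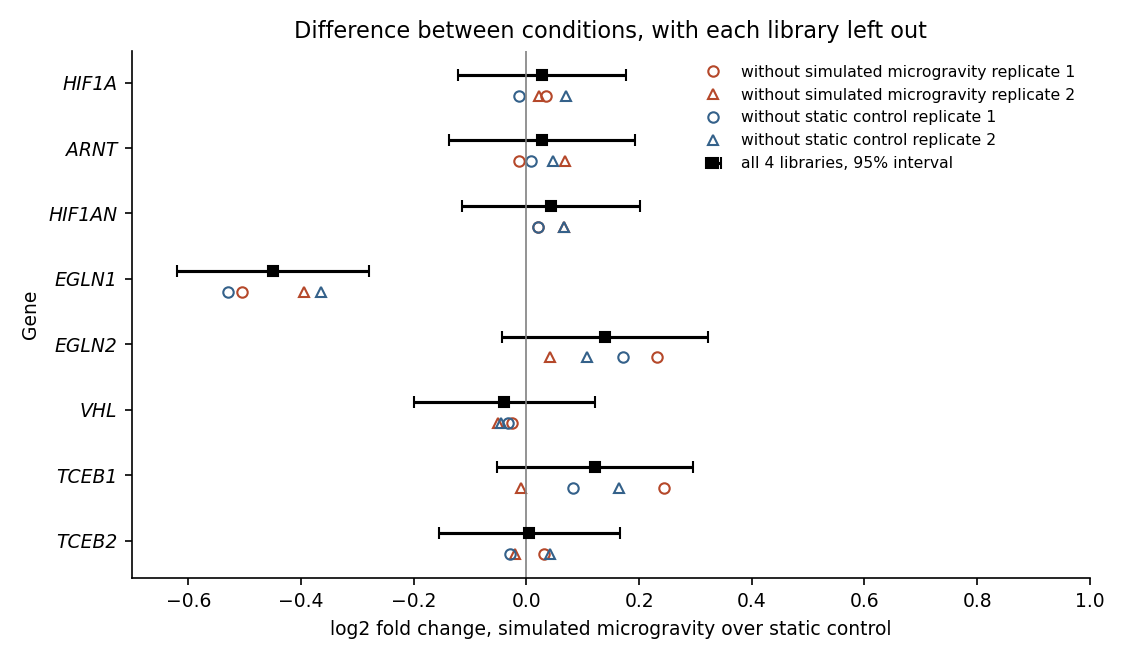
The log2FC (x axis, simulated microgravity over static control) for the 8 genes (y axis). Squares with bars are the fit to all 4 libraries with its 95% interval, open symbols the fits that leave out 1 library. The interval of EGLN1 (-0.62 to -0.28) lies below 0, those of the other 7 genes include 0, and the open symbols of TCEB1 run from -0.01 to 0.24.

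Counted together, 1 member fell, 0 rose and 7 did not pass, where 0.867% of all genes fell and 0.237% rose. The median log2FC of the 8 members was 0.03, and that of all genes was 0.00. At the depth of these libraries, 33 of the 4109 genes with a mean count within the range of the members (2199 to 8833) were called, and the smallest absolute log2FC among them was 0.30. No smaller change was called among genes of this level. Of these 4109 genes, 14 had a log2FC as low as that of EGLN1 or lower, EGLN1 included.

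The spread between libraries of a condition differed between the members. For EGLN1, a chi-square of the 2 libraries of a condition, with 1 degree of freedom, was 12.0 in simulated microgravity and 34.9 in static control, while for VHL it was 0.424 and 0.173. TCEB1 had the largest value of the members, 138 in simulated microgravity, against 13.5 in static control. The chi-square sets the spread between libraries against counting noise. Over the 4109 genes of like mean count, its medians were 7.86 in simulated microgravity and 4.86 in static control. EGLN1 lay above both.

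Ratios of counts within a library do not depend on how the libraries are scaled. The ratio of EGLN1 to HIF1A was 0.571 and 0.525 in simulated microgravity, against 0.741 and 0.784 in static control. The ratio of EGLN1 to EGLN2 was 1.91 and 1.55 in simulated microgravity, against 2.39 and 2.79 in static control. Both ratios were lower in each rotated library than in each static one. The same held for EGLN1 to VHL (1.21 and 1.10 in simulated microgravity, against 1.44 and 1.63 in static control). It also held for EGLN1 to HIF1AN (0.908 and 0.868 in simulated microgravity, against 1.20 and 1.30 in static control). All of these ratios share the counts of EGLN1 and are not separate results. The ratio of VHL to HIF1A, neither of them called, was also lower in each rotated library (0.473 and 0.478, against 0.515 and 0.482 in static control). The ratios of ARNT, HIF1AN and EGLN2 to HIF1A overlapped between the conditions. With 2 libraries a condition, the smallest p of an exact permutation test (two-sided) is 0.333. The ratio of TCEB1 to TCEB2, the elongins, was 2.17 and 2.50 in simulated microgravity, against 2.15 and 2.16 in static control, so that 1 rotated library stood apart.

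**Figure D3:**
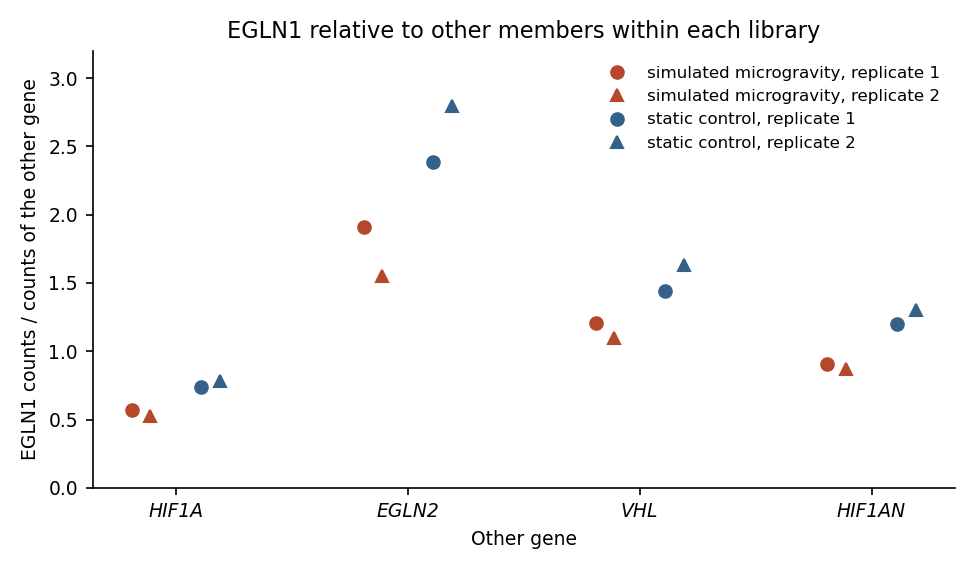
Counts of EGLN1 divided by the counts of HIF1A, EGLN2, VHL or HIF1AN in the same library (y axis, no unit), in simulated microgravity (left, red) and static control (right, blue), 1 point per library. In all 4 ratios, which share the counts of EGLN1, both rotated libraries lie below both static ones. In EGLN1 to HIF1A they are 0.525 and 0.571 against 0.741 and 0.784.

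Levels were compared between genes only per length, as CPM per kilobase of an estimated record length (exons of the GENCODE transcript within the span of the record, plus the part of the record beyond it). TCEB2 had 64.8 ± 1.57 in simulated microgravity and 64.6 ± 2.24 in static control, the highest of the members placed in order (CPM per kilobase, SD, n = 2 each). HIF1A had 29.0 ± 0.130 CPM per kilobase in simulated microgravity and 28.5 ± 1.16 in static control. EGLN2 had 18.5 ± 1.71 in simulated microgravity and 16.8 ± 0.528 in static control. TCEB2, HIF1A and EGLN2 lay apart from each other and above VHL, ARNT and HIF1AN in every library. VHL had 12.3 ± 0.137 CPM per kilobase in simulated microgravity and 12.6 ± 0.0883 in static control. ARNT had 10.7 ± 0.433 in simulated microgravity and 10.5 ± 0.194 in static control, and HIF1AN had 10.5 ± 0.246 in simulated microgravity and 10.2 ± 0.236 in static control. By the estimate, ARNT and HIF1AN overlapped in their libraries and cannot be placed in order. The length of HIF1AN was 12927 bases by the GENCODE transcript and 6912 bases by the estimate. The longer length would lower its level, which leaves it below TCEB2, HIF1A and EGLN2 either way. EGLN1 was not placed in this order, because its length was 4335 bases by the GENCODE transcript and 7097 bases by the estimate, which changes its level per length. TCEB1 was left out because its 9 records differ in mean count by 2.31 times.

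The table gives 23 records for the 8 genes, and records of a gene share reads. In the test of all 22375 records, 1 of the 23 passed, the single record of EGLN1 (log2FC -0.45, edgeR, adjusted p = 0.0033), against 1.32% of all records. The 9 records of TCEB1 had log2FC from 0.11 to 0.12. The 3 records of HIF1A, of which 1 begins further downstream, had 0.02 to 0.03. The 3 records of ARNT had 0.02 to 0.03, the 2 of EGLN2 both 0.14, the 2 of VHL both -0.04 and the 2 of TCEB2 both 0.00.

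The other genes of the pathway were read from lists, of which the HIF target genes held most of the calls. Of 42 measured HIF target genes other than the members, 16 fell, 0 rose and 26 did not pass, against 0.867% of all genes that fell, with a median log2FC of -0.32. The list was chosen with earlier results of these libraries known, so its count is a description. The 4 with the smallest p were PDK1, the kinase that inhibits pyruvate dehydrogenase (-0.88, adjusted p = 0.000119), BNIP3, a mitophagy receptor (-0.84, 0.000691), the glycolytic enzyme ENO1 (-0.41, 0.00175) and the lipid droplet gene HILPDA (-0.96, 0.00333, log2FC and edgeR adjusted p). ENO1 lost its call without static control replicate 1 (edgeR, adjusted p = 0.178), HILPDA with DESeq2 (adjusted p = 0.255) and with edgeR's robust setting (0.630), and BNIP3 with the robust setting (0.101). In PDK1, the rotated libraries had 62.7 and 50.7 CPM, against 103 and 105 CPM in static control. The log2FC of EGLN1, -0.45, was below the median of this list. edgeR's robust setting called 8 of the 42 as lower in place of 16, and without simulated microgravity replicate 1 the test called 29.

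In the list of 13 genes named VHL ligase partners, 1 fell, 0 rose and 12 did not pass. Of all genes, 0.867% fell and 0.237% rose. The median log2FC of the list was 0.01. The gene that fell was WSB1, a SOCS box protein of another elongin ligase and not a subunit of the VHL ligase. WSB1 is also induced by hypoxia. It had 335 and 226 CPM in simulated microgravity, against 441 and 407 CPM in static control (log2FC -0.59, edgeR, adjusted p = 0.0335). DESeq2 and edgeR's robust setting did not call WSB1 (adjusted p = 0.778 and 0.733), and its log2FC was -0.34 without simulated microgravity replicate 2 and -0.90 without simulated microgravity replicate 1. COPS5, a subunit of the signalosome that removes NEDD8 from cullins, had 0.08 (adjusted p = 0.935), and the ubiquitin-conjugating enzymes UBE2D2 and UBE2D3 had -0.05 and 0.05 (adjusted p = 0.974 and 0.975).

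Of 19 measured HIF coactivators and modulators, 1 rose, 0 fell and 18 did not pass, where 0.237% of all genes rose and 0.867% fell. The median log2FC of this list was -0.01. HSP90AA1, the inducible form of the chaperone that holds HIF alpha before it pairs with ARNT, had 3182 and 3556 CPM in simulated microgravity, against 2806 and 2970 CPM in static control (log2FC 0.22, edgeR, adjusted p = 0.0632). Its call was lost with DESeq2 (adjusted p = 0.247) and limma-voom (0.214), and without static control replicate 1 (edgeR, adjusted p = 1.000) or 2 (0.965). RHEB, the GTPase that activates mTORC1, had 0.16 (adjusted p = 0.570), LIMD1, a scaffold that brings EGLN1 and VHL together, -0.16 (0.778), and the constitutive chaperone HSP90AB1 0.05 (0.897). Without simulated microgravity replicate 1, HSP90AB1 passed as higher (edgeR, adjusted p = 0.0435) and LIMD1 as lower (log2FC -0.34, adjusted p = 0.0124). The log2FC of LIMD1 was 7.5e-05 without simulated microgravity replicate 2. None of 10 measured genes of the bHLH-PAS family and its coactivators passed edgeR's quasi-likelihood test, against 1.10% of all genes. None of the 10 had an unadjusted p under 0.05, against 8.08% of all genes. Their median log2FC was 0.00, and those with the smallest p were ARNTL2 (0.13, adjusted p = 0.730), NCOA3 (-0.11, 0.853), NCOA2 (-0.10, 0.884) and ARNTL (0.07, 0.937).

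**Figure D4:**
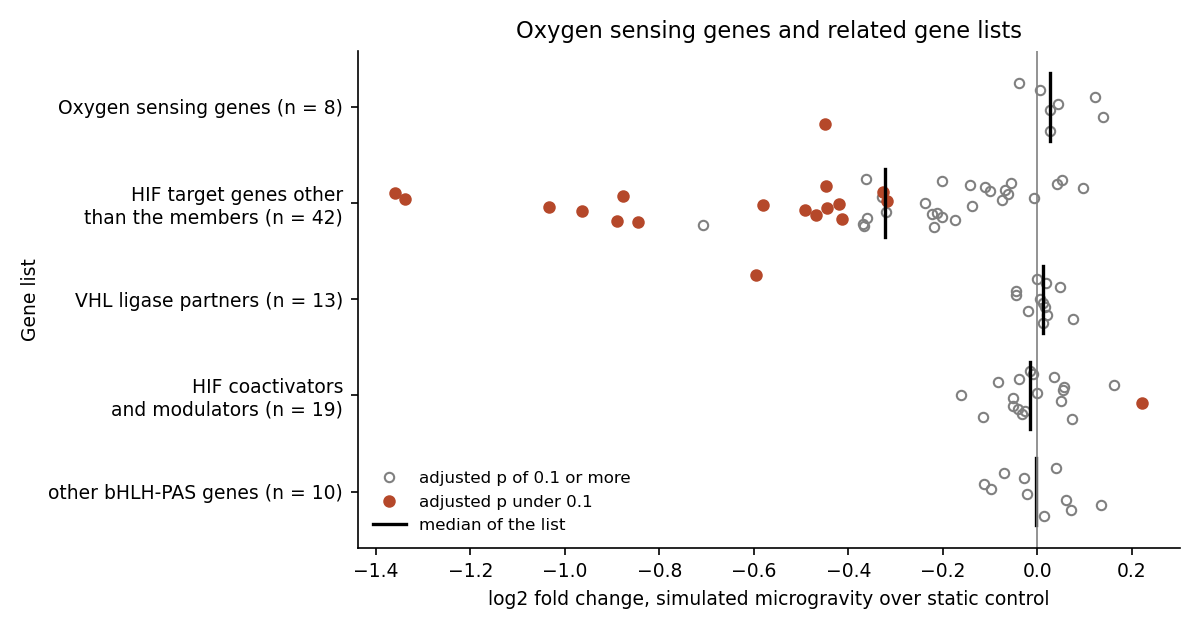
The log2FC (x axis, simulated microgravity over static control) for each measured gene of 5 lists (y axis). Filled red circles passed the test (adjusted p under 0.1), open grey circles did not, and black lines are medians. Of the oxygen sensing genes 1 of 8 is filled (EGLN1, -0.45), and of the HIF target genes 16 of 42, all on the left, around a median of -0.32.

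The genes most like EGLN1 were taken by the root mean square distance between profiles of log2 CPM over the 4 libraries, each centred on its own mean. DPCD, named after primary ciliary dyskinesia, was nearest with a distance of 0.00893, followed by PLEKHA2, a phosphoinositide-binding adaptor (0.0261), the noncoding C5orf56 (0.0274), LYST, a regulator of lysosome size (0.0311), and ZC3HAV1L (0.0365). DPCD had 14.8 and 13.8 CPM in simulated microgravity, against 18.4 and 20.8 CPM in static control, a log2FC of -0.46 (edgeR, adjusted p = 0.0297). The others had -0.45 (PLEKHA2), -0.50 (C5orf56, not called), -0.39 (LYST) and -0.49 (ZC3HAV1L). Likeness to EGLN1 in these values, and when a library is left out, follows from the way the genes were chosen. Without static control replicate 2, as for EGLN1, the calls of DPCD (edgeR, adjusted p = 0.446), PLEKHA2 (0.349), LYST (0.529) and ZC3HAV1L (0.622) were lost, and ZC3HAV1L also lost its call without simulated microgravity replicate 2 (0.116) or static control replicate 1 (0.262). ZC3HAV1L did not pass with DESeq2 (adjusted p = 0.240), library sizes (0.140), the replicate number as a block (0.154) or the record listed first (0.107), and LYST did not pass with the block (0.130). C5orf56 passed without simulated microgravity replicate 1 (0.0723).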

How the data were processed

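RNA was sequenced from 2 simulated microgravity and 2 static control libraries of TK6 cells. RNA-STAT-60 was the extraction reagent. Reads were mapped by the authors to hg19 using TopHat (their processing notes name TopHat2 2.0.8, their methods another version). Then reads with several mappings were removed, and reads per RefSeq record were counted with Bamutils. The deposited counts are raw whole numbers. The deposited CPM values of the authors divide them by the total of all records counted, and no listed record has its highest CPM below 1.00. The deposited log2 values and p-values of the authors are their own edgeR comparison and were not used.

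The record with the highest mean count was kept per gene (4944 of 11415 genes have several). The test was run with edgeR 4.0.16 under R 4.3.3 (filterByExpr, which removed 0 genes, TMM, quasi-likelihood test, Benjamini-Hochberg FDR under 0.1), and p-values were adjusted over all genes. The common dispersion gave a coefficient of variation of 6.77% between libraries. Scripts were tested on simulated data. The members, the lists and the rules were chosen with earlier results of these data known. Genes were named by rule: all members listed, up to 4 genes of each list by smallest p, and the 5 genes nearest to each called member with a mean count of at least 50. RAB4B-EGLN2, HIF1A-AS2, KRT8, COL1A1 and ITGAM were named outside it, after their values were seen. The alternatives tried were a stricter FDR (0.05), scaling by library sizes or by the size factors of DESeq2, DESeq2 1.42.0, limma-voom (limma 3.58.1), other tests of edgeR, other filters, the replicate number as a block, the record listed first, and each library left out. Protein sequences were not used here.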

Additional observations from a re-analysis of the deposited data

How the results depend on the processing

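EGLN1 kept its direction in all 16 alternatives and passed in 15 of them, with log2 fold changes from -0.53 to -0.37 with a library left out and from -0.45 to -0.44 otherwise. Some of these alternatives could hardly differ for EGLN1. The fit without a filter is the main fit again, since the filter removed 0 genes, and the FDR under 0.05 uses the main fit. The record listed first leaves the counts of EGLN1 unchanged, since it has 1 record. The largest adjusted p of EGLN1 among the alternatives that kept all libraries was 0.0624 (edgeR), with the replicate number as a block. HIF1AN, EGLN2 and VHL kept their direction and did not pass in any of the 16. With a library left out, EGLN2 ranged from 0.042 to 0.23, HIF1A from -0.013 to 0.070, ARNT from -0.012 to 0.068, TCEB1 from -0.0098 to 0.24 and TCEB2 from -0.030 to 0.041, where the last 4 changed sign near 0, and TCEB1 passed in 1 such fit. Where a library is left out, the lone library of its condition is assumed to vary like the other condition.

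The number of members called was 0 to 2 with a library left out, and that of their records 0 to 10. Over all genes, 70 to 877 were called with a library left out (59 to 592 fell and 11 to 285 rose), the highest without simulated microgravity replicate 1. edgeR's likelihood ratio test called 194 genes, of which 51 rose, its exact test had 49 rises, and an FDR under 0.05 left 17 rises. Over all records, 135 to 1777 were called with a library left out. Among HIF target genes, 12 to 29 fell and 0 to 1 rose with a library left out, and 8 fell with edgeR's robust setting. In the list of VHL ligase partners, 0 fell with DESeq2 and with the robust setting, where WSB1 lost its call. Among HIF coactivators and modulators, 0 rose with an FDR under 0.05, DESeq2, limma-voom, the likelihood ratio test, the exact test or a minimum of 5 CPM in 2 libraries, and 0 to 2 rose and 0 to 1 fell with a library left out. With a library left out, COPS5 ranged from -0.0026 to 0.15, UBE2D2 from -0.093 to 0.0026 and LIMD1 from -0.34 to 7.5e-05.

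Same-numbered libraries deviated together only weakly (correlation across genes 0.0802), so the numbers were not taken as pairs. With the replicate number as a block, 96 genes and 458 records were called, against 126 and 296 without it, and 1 member passed, EGLN1.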
